A study of Mus musculus with 21 samples.

Results

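The genes described here are 10 genes of the cortical glutamatergic lineage: Pax6, Emx1, Emx2, Neurog1, Neurog2, Eomes, Neurod1, Tbr1, Fezf2 and Slc17a6. They were chosen by name, and their data are all peaks and regions whose summit lay inside the gene body or within 100 kb of it in the mouse build mm10. All 10 genes were found in the RefSeq annotation, and 291 of the 92305 peaks and regions in the 10 deposited lists met that rule. Of these, 288 were among the 91480 ChIP peaks and 3 were among the 825 accessibility regions.

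Excitatory neurons of the cerebral cortex use glutamate and are born in the dorsal telencephalon, where radial glia express PAX6, EMX1 and EMX2. The proneural factors NEUROG1 and NEUROG2 start a cascade that passes through EOMES in intermediate progenitors and NEUROD1 to TBR1 and FEZF2 in young neurons. The ganglionic eminences are the ventral telencephalon, which makes GABAergic neurons under the homeodomain factors DLX1 and DLX2. Most genes of the cortical programme are known to be largely inactive there, although Pax6 is also expressed in the lateral eminence.

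The tissue was the ganglionic eminence (labelled basal ganglia) of CD1 mouse embryos. NuRD is a complex that moves nucleosomes and removes acetyl groups from histones, and 6 of its subunits were mapped at E13.5 by ChIP-seq, in which DNA bound by a protein is pulled down with an antibody and sequenced. Each subunit had 1 library, and there were 3 inputs. ATAC-seq, which marks open chromatin, was done at E12.5 on Dlx1/2 knockout (KO) and wild-type (WT) embryos, in FTneg cells from the subventricular and mantle zones and FTpos cells from the ventricular zone. There were 3 embryos per genotype and fraction, which the authors combined into 1 list of regions higher in KO and 1 higher in WT for each fraction. The KO lacks both Dlx1 and Dlx2, and no Cre driver or cell type restriction is given in the labels. The cells of the ChIP libraries are of the CD1 strain with no genotype given.

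The subunits are CHD4, an ATPase that slides nucleosomes, the deacetylases HDAC1 and HDAC2, MBD3, a scaffold subunit that sets NuRD apart from related complexes, and the histone-binding proteins RBBP4 and RBBP7, which also belong to other chromatin complexes. Labels and list names disagree for 3 ChIP samples: the list of the CHD4 sample is named HDAC1, that of the HDAC1 sample HDAC2 and that of the HDAC2 sample CHD4. These 3 are called the CHD4-labelled, HDAC1-labelled and HDAC2-labelled lists here, since the right name is unknown. Lists ranged from 5517 peaks (HDAC2-labelled) to 29762 (RBBP4). Read depth is unknown, no list has a replicate, and all values below are therefore descriptions without a test. By the sample labels, RBBP4 and RBBP7 were paired with the same input, as were CHD4 with MBD3 and HDAC1 with HDAC2. If the names of the lists hold instead, the CHD4-labelled list shares its input with the HDAC1-labelled list and the HDAC2-labelled list with MBD3. Lists that share an input are not independent. The ends of genes (1 kb to each side of an annotated end) that mark other cell types were without a peak of any list at 6 of 6 microglial and 8 of 8 endothelial and mural genes, while 0 of 6 ventral and 0 of 5 dorsal telencephalic markers lacked one. Over all curated genes 42.7% lacked one, and 4 of the 5 dorsal markers (Emx1, Emx2, Eomes and Tbr1) are among the 10 genes, so the dorsal markers are no separate check. Bulk tissue was used, so a peak in few cells and weak occupancy in many cannot be told apart.

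The promoters of 6 of the genes are shown for their peaks or their sequence. Between them they carry peaks of 2 to 5 lists, and the windows with fewer (both of Pax6 and the second of Slc17a6) are described but not shown. Each is 250 bases before to 50 after a RefSeq start (GRCm38.p6, the assembly of mm10), 5′ to 3′ on the strand of the gene. Capitals mark TAATT on either strand (AATTA is its reverse complement), the core of sites that many homeodomain proteins are known to bind. Neurod1 (chr2:79456587-79456886, minus strand) had peaks of 5 lists over this window. Fezf2 (chr14:12345816-12346115, minus) had the highest RBBP7 fold enrichment. Tbr1 (chr2:61804203-61804502, plus), Eomes (chr9:118477939-118478238, plus) and Neurog1 (chr13:56252131-56252430, minus) held the most TAATT. Emx2 (chr19:59458440-59458739, plus) lay at the edge of a broad CHD4-labelled peak.
Neurod1: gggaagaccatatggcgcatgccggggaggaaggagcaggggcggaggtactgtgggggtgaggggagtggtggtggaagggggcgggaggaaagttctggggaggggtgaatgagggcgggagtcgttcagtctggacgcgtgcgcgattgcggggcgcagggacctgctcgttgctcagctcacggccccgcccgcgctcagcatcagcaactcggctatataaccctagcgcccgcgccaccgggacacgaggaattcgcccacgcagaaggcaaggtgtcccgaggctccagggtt
Fezf2: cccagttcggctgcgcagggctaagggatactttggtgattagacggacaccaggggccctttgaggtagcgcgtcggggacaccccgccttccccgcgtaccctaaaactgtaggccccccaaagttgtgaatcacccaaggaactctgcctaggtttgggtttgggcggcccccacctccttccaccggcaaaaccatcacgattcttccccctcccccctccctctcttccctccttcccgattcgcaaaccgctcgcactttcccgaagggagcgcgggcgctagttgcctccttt
Tbr1: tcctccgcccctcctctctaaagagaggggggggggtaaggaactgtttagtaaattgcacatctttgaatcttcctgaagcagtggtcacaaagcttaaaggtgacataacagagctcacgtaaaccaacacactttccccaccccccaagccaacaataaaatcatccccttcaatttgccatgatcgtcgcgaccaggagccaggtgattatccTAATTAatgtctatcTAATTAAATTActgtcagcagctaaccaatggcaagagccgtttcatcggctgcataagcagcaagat
Eomes: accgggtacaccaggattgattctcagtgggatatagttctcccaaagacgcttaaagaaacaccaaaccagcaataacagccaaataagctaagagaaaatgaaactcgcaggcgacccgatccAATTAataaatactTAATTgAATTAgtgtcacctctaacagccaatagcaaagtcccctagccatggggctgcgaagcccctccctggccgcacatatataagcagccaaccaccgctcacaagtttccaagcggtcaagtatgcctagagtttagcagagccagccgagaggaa
Neurog1: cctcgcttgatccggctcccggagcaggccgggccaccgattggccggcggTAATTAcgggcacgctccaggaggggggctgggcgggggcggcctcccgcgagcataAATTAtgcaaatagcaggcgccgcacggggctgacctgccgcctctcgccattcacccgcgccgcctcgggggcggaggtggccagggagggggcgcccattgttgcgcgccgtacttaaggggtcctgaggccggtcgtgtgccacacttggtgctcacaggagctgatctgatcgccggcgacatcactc
Emx2: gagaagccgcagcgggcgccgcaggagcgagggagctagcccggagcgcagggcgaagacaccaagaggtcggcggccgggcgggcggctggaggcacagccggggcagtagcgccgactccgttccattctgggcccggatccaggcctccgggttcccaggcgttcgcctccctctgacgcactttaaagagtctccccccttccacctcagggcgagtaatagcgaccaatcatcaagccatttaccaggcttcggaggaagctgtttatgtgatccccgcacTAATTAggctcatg
The Tbr1 window held 5 matches to TAATT, counting both strands and counting the overlapping pair in TAATTA as 2. Eomes and Neurog1 held 3 each and Emx2 held 2, while Neurod1 and Fezf2 held 0. Over all 20392 promoter windows 23% held at least 1 match and 1.24% held 4 or more. The second windows of Pax6 and Slc17a6 held 2 each, while their first windows and the windows of Emx1 and Neurog2 held 0. A match to these letters is a description of the sequence and does not show that any factor binds there.

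RBBP4 and RBBP7 were the subunits found most often at the start sites of the cortical genes, and the RBBP4 share was nearly as high at ventral genes. An RBBP4 peak covered a promoter window of 10 of 10 genes, against 15 of 16 ventral GABAergic genes and 45.0% of the 16782 curated genes in the promoter table. An RBBP7 peak covered a window of 7 of 10, against 9.56% of all genes, leaving out Pax6, Emx1 and Neurog1. In the other lists the share was nearer to that over all genes: the CHD4-labelled list covered 4 of 10 (all genes 42.5%), the HDAC1-labelled list 2 of 10 (22.3%), the HDAC2-labelled list 0 of 10 (7.47%) and MBD3 3 of 10 (20.1%). No gene had all 6 lists over a window (1.73% of all genes), and none lacked every list (44.4%).

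**Figure D1:**
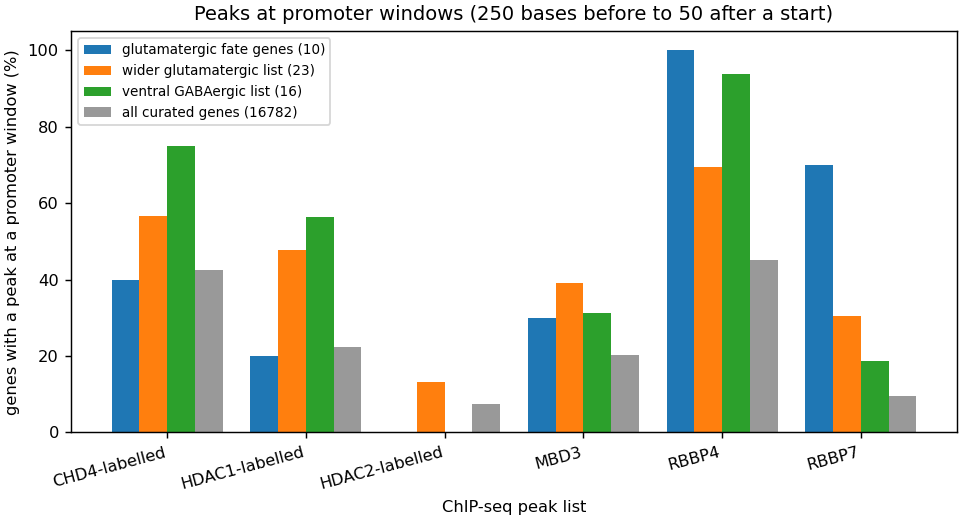
Share of genes (%) with a peak over a promoter window, for each ChIP list, in the 10 glutamatergic fate genes, the wider glutamatergic list, the ventral GABAergic list and all curated genes in the promoter table. The RBBP7 bar of the 10 genes stands at 70%, against 30.4% for the wider list, 18.8% for the ventral list and 9.56% for all genes.

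The fold enrichments of the peaks that overlapped these windows, which are the authors' values at peak summits, were modest. The summit lay outside the window for many of them, so these are not enrichments at the window itself. Examples are RBBP4 at Fezf2, Tbr1, Eomes, Neurod1 and Neurog2, the CHD4-labelled list at Fezf2 and Neurod1, and RBBP7 at Eomes. At the Fezf2 window RBBP7 was at 10.2-fold, RBBP4 at 8.48-fold and the CHD4-labelled list at 4.22-fold. Eomes, the T-box gene of intermediate progenitors, had RBBP4 at 8.42-fold and RBBP7 at 6.92-fold and no other list. Tbr1, a T-box gene of early-born cortical neurons, had RBBP7 at 7.35-fold, RBBP4 at 6.51-fold and the CHD4-labelled list at 5.20-fold. These 3 genes thus shared RBBP4 and RBBP7 at the window, and only Eomes lacked the CHD4-labelled list there. A CHD4-labelled peak at 3.41-fold lay just outside the Eomes window, with its summit 0.964 kb upstream of the start. Neurod1, a bHLH gene of differentiating neurons, had the CHD4-labelled list at 6.50-fold, RBBP7 and RBBP4 both at 5.80-fold, the HDAC1-labelled list at 4.97-fold and MBD3 at 3.56-fold. Neurog1 had the HDAC1-labelled list at 5.22-fold, RBBP4 at 4.70-fold and MBD3 at 4.30-fold, with no RBBP7 over the window itself. Neurog2, its close paralogue, had RBBP7 at 7.65-fold and RBBP4 at 5.79-fold. The paralogous pair thus shared only RBBP4 at the window. In the wider stretches of overlapping peaks over their starts, both genes had MBD3, RBBP4 and RBBP7, with MBD3 at 4.34-fold at Neurog2. Slc17a6, which encodes the vesicular glutamate transporter VGLUT2, had RBBP7 at 6.51-fold and RBBP4 at 4.71-fold at its first window and no list at its second. Pax6 had RBBP4 alone at both of its windows, at 5.14-fold and 5.33-fold.

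Over the whole windows of 100 kb on either side, every one of the genes had RBBP4 and RBBP7 peaks, and they differed widely in the other 4 lists. RBBP4 had 96 peaks near the genes, RBBP7 77, the CHD4-labelled list 55, MBD3 28, the HDAC1-labelled list 20 and the HDAC2-labelled list 12. As a share of its list, RBBP7 was highest at 0.516% and the HDAC1-labelled list lowest at 0.177%. At least 1 peak was found near 10 of 10 genes for RBBP4 (83.5% of all 20949 curated protein-coding genes with the same window) and near 10 of 10 for RBBP7 (61.5%). The counts were 9 of 10 for MBD3 (67.7%), 9 of 10 for the HDAC1-labelled list (68.5%), 8 of 10 for the CHD4-labelled list (78.9%) and 6 of 10 for the HDAC2-labelled list (46.4%). All 6 lists were present near 5 of 10 genes (Pax6, Neurog2, Eomes, Neurod1 and Fezf2), and near 34.8% of all genes. With 10 genes, counts this close to the share over all genes do not set the group apart, and the windows also hold neighbouring genes at all of them except Emx2.

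**Figure D2:**
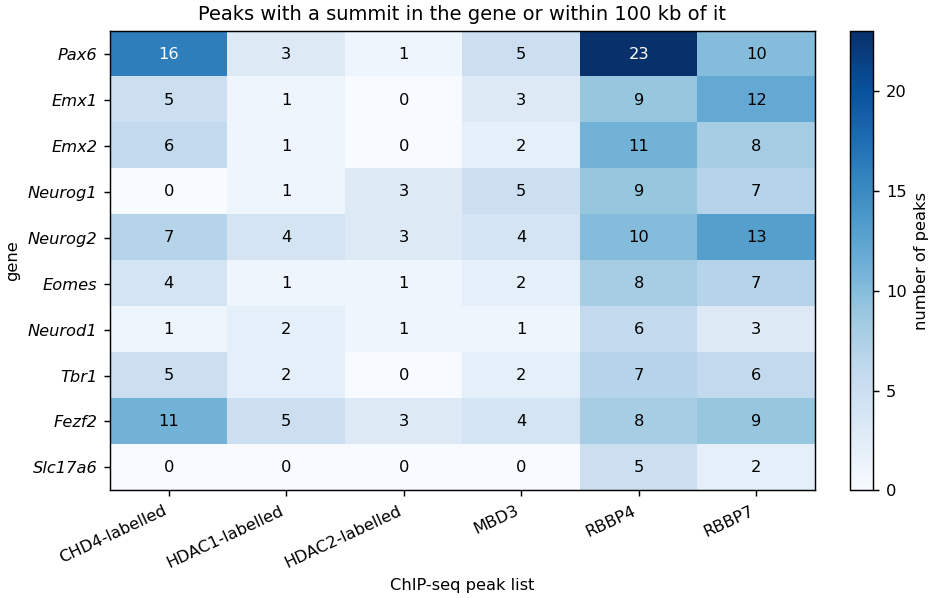
Number of peaks of each ChIP list (columns) with a summit in or within 100 kb of each gene (rows). Pax6 has the most peaks in the CHD4-labelled and RBBP4 lists (16 and 23), and Slc17a6 has RBBP4 and RBBP7 peaks only (5 and 2).

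Merging overlapping peaks of the 6 lists gave 115 regions near the genes, of 38820 in all. The genes had a median of 9.5 regions each, against 5 over all curated genes, or 4.54 per 100 kb of window against 1.97. Pax6 had the most at 25 regions (10.9 per 100 kb), a density above that of 99.5% of curated genes. Neurog2 followed with 16 regions (7.89 per 100 kb), then Emx1 with 13 and Neurog1 with 12. Slc17a6 had the fewest, 5 regions (2.01 per 100 kb), close to the median gene. Of the 115 regions, 78 had the gene itself as the nearest gene and 32 had their summit within its body.

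Among the dorsal progenitor genes, Pax6 had the most peaks inside the gene, and Pax6 is also the longest of them (29.5 kb, against 16.5 kb for Emx1 and 6.67 kb for Emx2). It encodes a paired-domain and homeodomain factor of radial glia, and 13 of its 16 CHD4-labelled peaks and 12 of its 23 RBBP4 peaks had their summit in the gene body. CHD4-labelled peaks covered 31.1% of the body and RBBP4 peaks 33.0%. A region of 4.79 kb (chr2:105674459-105679251) in the gene held 9 peaks of the CHD4-labelled, MBD3, RBBP4 and RBBP7 lists, the strongest of them RBBP4 at 8.93-fold. A second of 4.0 kb (chr2:105686616-105690614) held 9 peaks of the CHD4-labelled, HDAC1-labelled, RBBP4 and RBBP7 lists, at 3.97-fold to 6.47-fold. The strongest region in the Pax6 window lay beyond the gene, within its neighbour Elp4 (chr2:105718494-105721668), and held all 6 lists. There RBBP7 reached 18.4-fold, rank 54 of the 14918 RBBP7 peaks, the CHD4-labelled list 10.6-fold, RBBP4 7.12-fold, the HDAC1-labelled list 5.32-fold, MBD3 5.06-fold and the HDAC2-labelled list 4.26-fold. In peaks per list, the genes most like Pax6 over all curated genes were Elp4, which shares most of its window, then Cdk2ap1 and Agap3, at distances of 0.46, 1.07 and 1.08 on a log2 scale over the 6 lists.

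Emx1 and Emx2 encode homeodomain factors of the dorsal telencephalon and had different patterns. Emx1 had 12 RBBP7 and 9 RBBP4 peaks. Many of them were spread downstream across Sfxn5, which was the nearest gene of 8 of its 13 regions. Its strongest peaks were RBBP7 at 14.0-fold and 11.4-fold, with no peak of another list in the same region. At the start of Emx1 itself a region of 3.96 kb (chr6:85187073-85191032) held every list except the HDAC2-labelled one, at 4.12-fold to 6.78-fold. Emx2 had all 9 of its regions nearest to itself. A single CHD4-labelled peak (chr19:59458639-59464325, 5.69 kb, 9.53-fold) ran through Emx2, and CHD4-labelled peaks covered 98.5% of the gene body, the largest cover of any of the 10 genes in any list. RBBP4 covered 57.3% of Emx2 and RBBP7 5.91%. The merged region over Emx2 was 8.83 kb wide, the widest near the 10 genes, and the next region, past the 3′ end (chr19:59465815-59468005), held 5 lists at 3.35-fold to 8.48-fold.

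**Figure D3:**
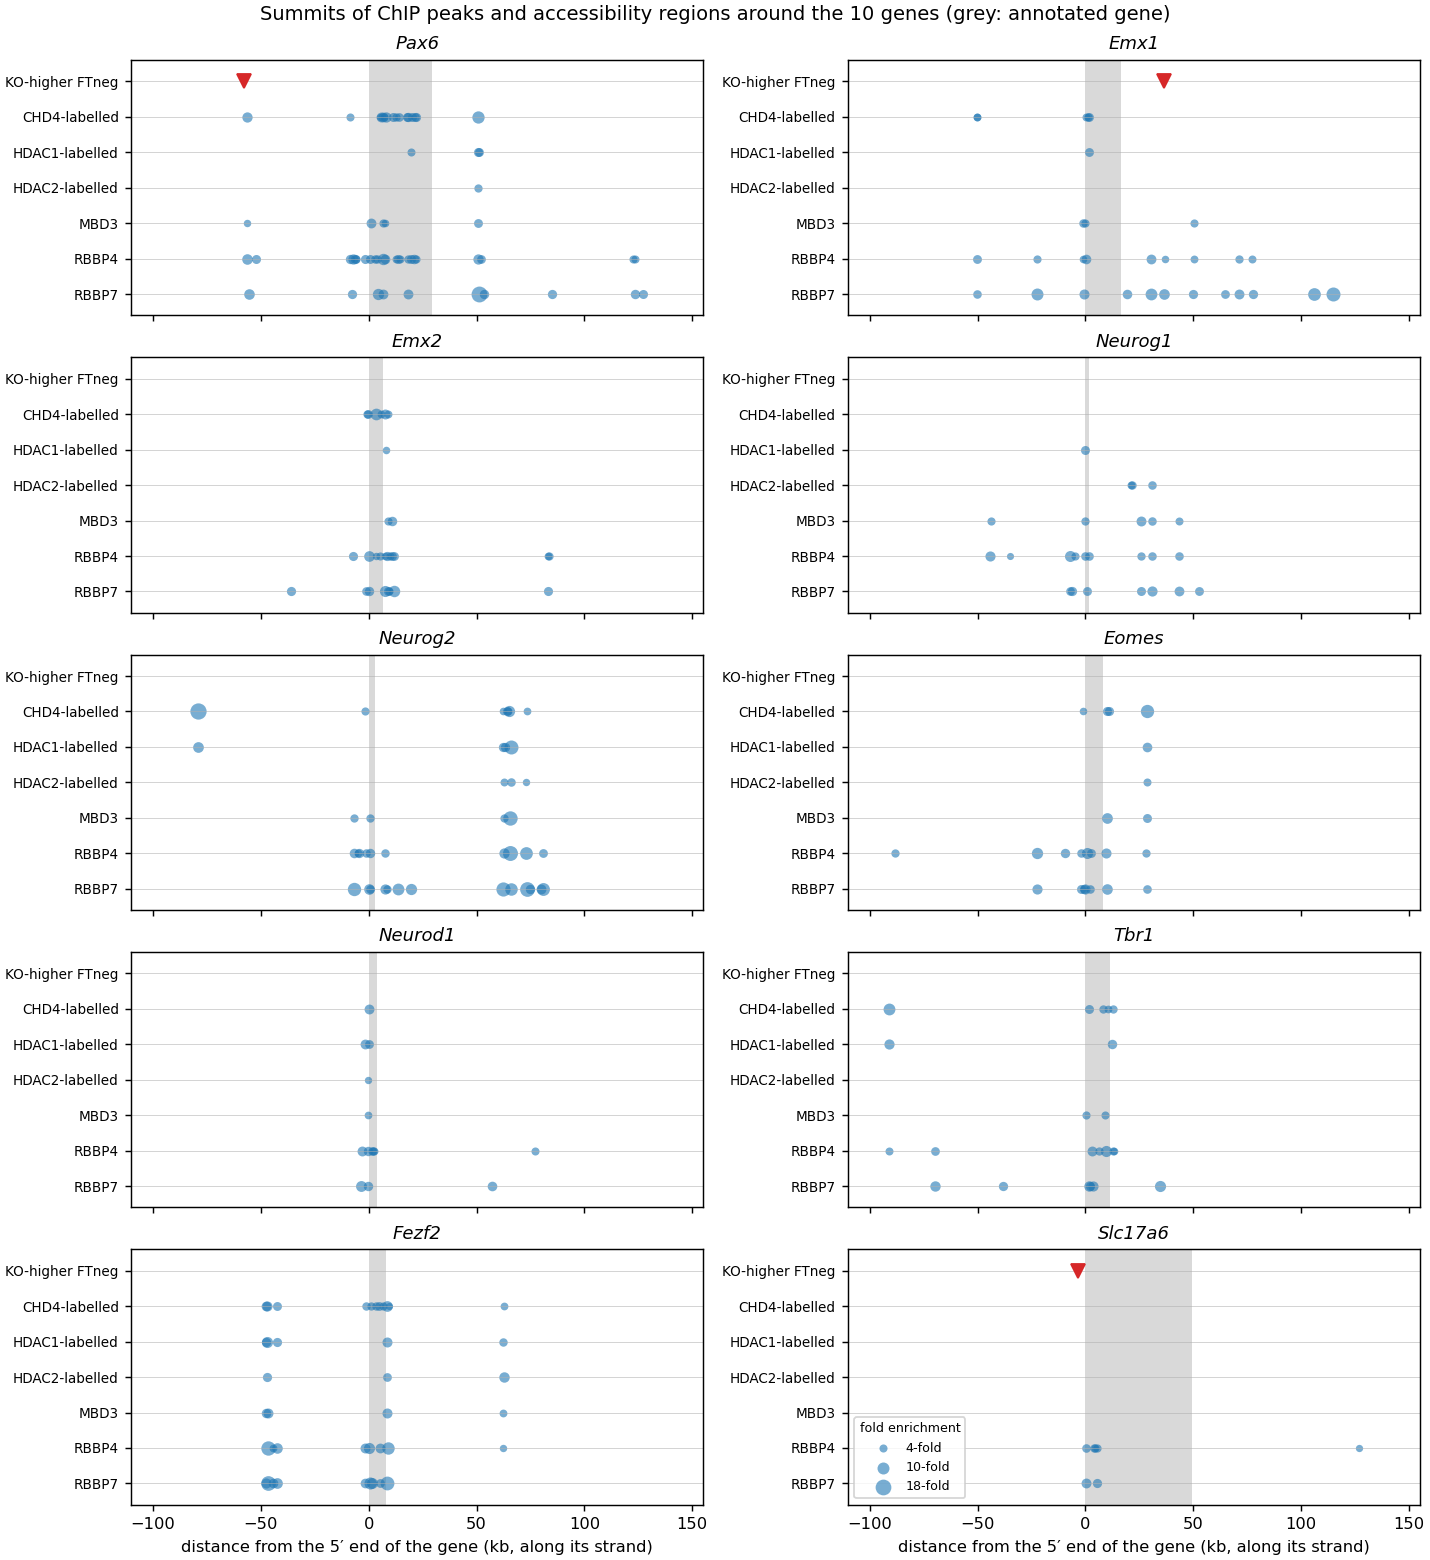
Positions of ChIP peak summits (blue circles, area scaled by fold enrichment, 1 line per list) and of KO-higher FTneg regions (red triangles) around each gene, in kb from its 5′ end along its strand, with the annotated gene in grey. Many Pax6 summits lie in the gene body, while the regions of all 6 lists near Neurog2 lie far downstream, and Slc17a6 has peaks of 2 lists only.

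Ranked by number of lists and then summed fold enrichment, the first region of each proneural gene lay far from the start, at Neurog1 by a small margin. Neurog1 was without a CHD4-labelled peak in its window, the only one of the 10 genes besides Slc17a6. A region of 4 lists over its start (chr13:56251259-56252740) held the HDAC1-labelled list at 5.22-fold, RBBP7 at 5.08-fold, RBBP4 at 4.70-fold and MBD3 at 4.30-fold. Another of 4 lists lay 30.8 kb downstream (chr13:56221042-56222448), with RBBP7 at 6.97-fold and the HDAC2-labelled list at 4.63-fold. Its summed fold enrichment was 20.7, against 19.3 for the region over the start. The strongest single peak near Neurog1 was RBBP4 at 8.34-fold, 7.2 kb upstream of the start. Neurog2 had 2 regions of all 6 lists, both within Alpk1, a kinase gene downstream of it. The stronger, 64.9 kb from the Neurog2 start (chr3:127696640-127699396), had the highest summed fold enrichment of any region near the 10 genes. RBBP4 was at 16.1-fold there (rank 46 of its list), MBD3 at 14.8-fold (rank 73), the HDAC1-labelled list at 14.0-fold, RBBP7 at 11-fold, the CHD4-labelled list at 8.66-fold and the HDAC2-labelled list at 4.59-fold. The other (chr3:127694550-127695991) had RBBP7 at 14.4-fold and the other 5 lists at 3.46-fold to 7.1-fold. The strongest single peak in the CHD4-labelled list near the genes, 19.3-fold and rank 49 of its list, lay 79.6 kb upstream of Neurog2 with Zgrf1 as the nearest gene (chr3:127552605-127554704), beside an HDAC1-labelled peak at 7.84-fold. Nearer to Neurog2, a region 7.21 kb upstream (chr3:127625206-127626571) held RBBP7 at 12.7-fold, RBBP4 at 6.04-fold and MBD3 at 4.31-fold.

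The genes of intermediate progenitors and newborn neurons, Eomes and Neurod1, each had 8 regions and 1 region of all 6 lists. That of Eomes lay 28.4 kb downstream within Golga4 (chr9:118506116-118507293), with the CHD4-labelled list at 12.6-fold, the HDAC1-labelled list at 6.16-fold and MBD3 at 5.19-fold. Close to the 3′ end of Eomes a region of 2.88 kb (chr9:118486438-118489316) held MBD3 at 7.85-fold, RBBP7 at 7.61-fold, RBBP4 at 6.83-fold and the CHD4-labelled list at 5.34-fold. At Neurod1 the region of all 6 lists sat on the start (chr2:79455990-79457528), where the HDAC2-labelled list had the lowest fold enrichment at 3.13 and the CHD4-labelled list the highest at 6.50. It was the only region of 6 lists at a promoter of the 10 genes. No HDAC2-labelled peak reached the promoter window itself, which is why the window had 5 lists.

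Of the genes of postmitotic neurons, Fezf2 had the most shared regions and Tbr1 none of all 6 lists. Fezf2, a zinc finger gene that specifies corticospinal neurons of the deep layers, had 7 regions of 3 or more lists among its 9. A region at its 3′ end (chr14:12337083-12338756) held all 6 lists, with RBBP7 at 13.7-fold, RBBP4 at 10.8-fold, the CHD4-labelled list at 7.81-fold, MBD3 and the HDAC1-labelled list both at 6.71-fold and the HDAC2-labelled list at 4.90-fold. The other region of all 6 lists lay 47.7 kb upstream, within Cadps (chr14:12393123-12394798), and held 10 peaks. RBBP7 was at 15.6-fold there, RBBP4 at 14.8-fold (rank 79 of its list), the HDAC1-labelled list at 8.45-fold, the CHD4-labelled list at 6.83-fold, MBD3 at 6.58-fold and the HDAC2-labelled list at 5.51-fold. The Tbr1 region that ranked first by lists and then summed fold enrichment lay 92.4 kb upstream, within Psmd14 (chr2:61711525-61712579). It held the CHD4-labelled list at 9.75-fold, the HDAC1-labelled list at 7.0-fold and RBBP4 at 3.92-fold. Another HDAC1-labelled peak, at 5.86-fold, had its summit 1273 bp past the 3′ end of Tbr1. Over its promoter Tbr1 had a region of 4.53 kb (chr2:61803484-61808015) with RBBP7 at 7.35-fold, RBBP4 at 6.51-fold and the CHD4-labelled list at 5.20-fold. A second of 2.61 kb within Tbr1 (chr2:61810706-61813313) had RBBP4 at 8.48-fold, the CHD4-labelled list at 4.34-fold and MBD3 at 4.0-fold. No HDAC2-labelled peak lay near Tbr1, Emx1, Emx2 or Slc17a6. Slc17a6, the gene of the mature glutamatergic phenotype among the 10, had no CHD4-labelled, HDAC1-labelled, HDAC2-labelled or MBD3 peak in its window, and 4 of its 5 RBBP4 peaks lay in the gene at 4.11-fold to 4.71-fold.

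All 6 lists were found at a gene end of Fezf2 and Neurod1, 2 of 10 genes, against 3.0% of curated genes. A region of all 6 lists lay near 5 of 10 genes, against 16.4% of curated genes. The share was similar in the comparison lists, with 15 of 30 genes of the wider glutamatergic list and 9 of 20 of the ventral GABAergic list. There were 7 such regions among the 115 (6.09%, Wilson 95% interval 2.98 to 12, counting error over regions only), and 3.93% among all regions. Regions around the same gene are not independent, so this interval does not measure the spread between genes. Of the 7, 5 lay within a neighbouring gene (Elp4, Golga4, Cadps and 2 in Alpk1) and 2 were nearest to the gene itself (Neurod1 and the 3′ end of Fezf2). Regions of 1 list made up 51 of the 115 (44.3%), against 48.1% of all regions.

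In percentage points, RBBP7 and the CHD4-labelled list differed most in their share of regions near the genes and across the genome, in opposite directions. In proportion to the share over all regions, the HDAC1-labelled list was lower near the genes than the CHD4-labelled list. Counted by peaks, 0.301% of the CHD4-labelled list lay near the genes, against 0.177% of the HDAC1-labelled list. RBBP7 was present in 67 of 115 (58.3%), against 36.5% of all regions. The share was 77.4% against 72.5% for RBBP4, 30.4% against 42.4% for the CHD4-labelled list, 22.6% against 27.5% for MBD3, 14.8% against 23.6% for the HDAC1-labelled list and 10.4% against 13.4% for the HDAC2-labelled list. The RBBP4, MBD3 and HDAC2-labelled shares differed from those over all regions by the fewest percentage points. RBBP4 alone (26 regions), RBBP7 alone (17) or both without another list (22) made up 65 of the 115 (56.5%), against 43.7% of all regions. No test was made of these shares, since regions around 10 genes are not independent.

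**Figure D4:**
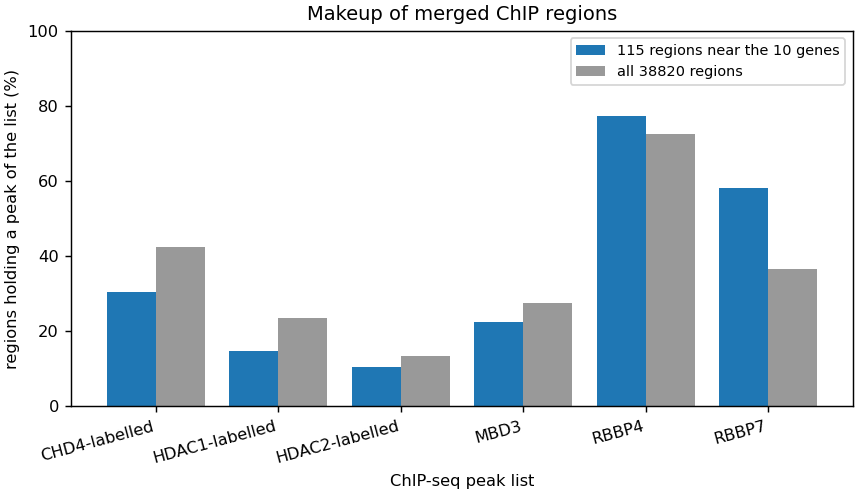
Share of merged regions (%) that hold a peak of each ChIP list, near the 10 genes (blue, 115 regions) and over all 38820 regions (grey). The RBBP7 bars differ most, 58.3% near the genes and 36.5% over all regions, and the CHD4-labelled bars stand in the opposite order, 30.4% and 42.4%.

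Peak strength relative to the whole list varied between the lists. Of CHD4-labelled peaks, 27.3% near the genes had a −log10 q of at least 10, against 60.2% of the whole list, and their median fold enrichment was 4.95 against 5.64. For RBBP7 the share was 46.8% against 39.4% and the median 6.47 against 6.20. For RBBP4 it was 53.1% against 58.8%, with medians of 4.71 and 4.85. For MBD3 it was 35.7% against 46.8%, with medians of 4.30 and 4.61. The HDAC1-labelled list had 30% against 25.1% (medians 5.60 and 5.22) and the HDAC2-labelled list 25% against 23.2% (medians 4.36 and 4.21), over only 20 and 12 peaks near the genes. The gap was widest for the CHD4-labelled list, in the direction of weaker peaks near the genes, and no test was made of it.

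RBBP4 peaks covered a large share of most of the gene bodies, several of which are short. RBBP4 covered a median of 49.8% of the body of the 10 genes, against 0.316% over all curated genes, whose 95th percentile was 14.0%. Among the 13994 curated genes within the length range of the 10 (1.70 to 49.3 kb), the 95th percentile was 17.9%. That range is wide, so genes were not matched by length. Neurog1 had the highest RBBP4 cover at 76.5%, followed by Fezf2 at 63.9%, Tbr1 at 62.9%, Emx2 at 57.3%, Neurog2 at 51.2%, Neurod1 at 48.5%, Pax6 at 33.0%, Eomes at 32.6% and Emx1 at 18.8%. Neurog1 is also the shortest of the genes at 1.70 kb, and an RBBP4 peak of 1.48 kb lay over its start. Slc17a6, the longest of the genes, was at 5.84% and was the only one under the percentiles given. RBBP7 covered a median of 5.20%, with a 95th percentile of 2.34% over all genes, and reached 26.1% at Neurog2, 24.5% at Neurog1 and 23.2% at Fezf2. The CHD4-labelled list covered a median of 9.49% (95th percentile over all genes 16.5%), with Emx2, Pax6 and Fezf2 above that percentile and 0% at Neurog1, Neurog2, Eomes and Slc17a6. The HDAC2-labelled list covered 0% of every one of the 10 bodies. Regions of 2.5 kb or more made up 12 of 115 (10.4%) near the genes, against 3.20% of all regions, and the median width was 673 bp against 597 bp.

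**Figure D5:**
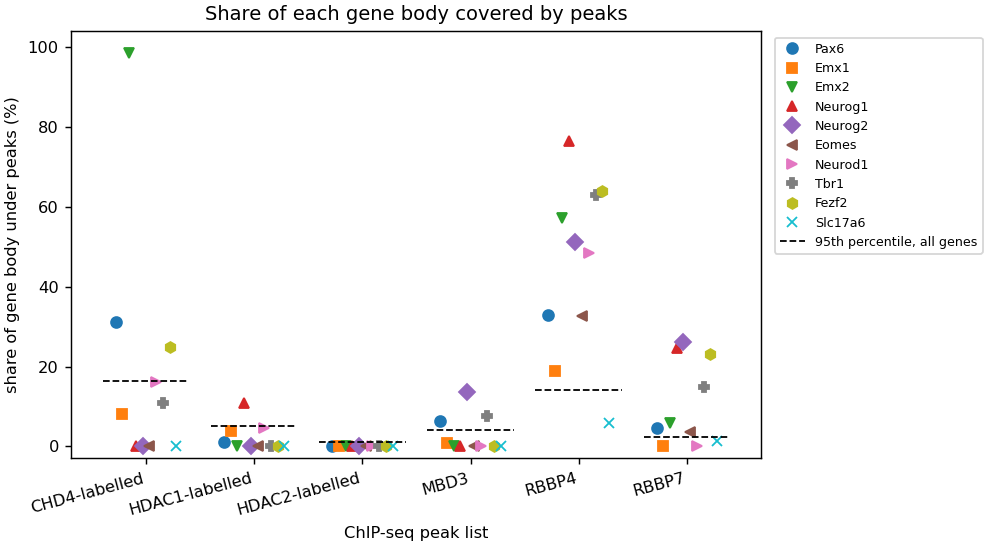
Share of each gene body (%) under peaks of each ChIP list, 1 symbol per gene, with the 95th percentile over all curated genes as a dashed line. For RBBP4, 9 of the 10 genes lie above the line at 14.0%, and Slc17a6 lies below it at 5.84%.

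The accessibility lists addressed which chromatin gained or lost accessibility in the Dlx1/2 KO. In FTneg cells 3 KO-higher regions lay near 3 of the 10 genes, Pax6, Emx1 and Slc17a6, and 5.46% of curated genes had one in the same window. No WT-higher region lay near any of the 10 genes in FTneg (0.310% of curated genes had one). In FTpos there was none near the 10 genes among the 12 KO-higher regions (0.210% of curated genes) or the 33 WT-higher regions (0.205%). These lists are short, so 0 of 10 is close to what the share over all genes gives.

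All 3 KO-higher regions were among the weakest in their list by area, a score that sums −log10 p along a region and that the authors required to be at least 500. The Pax6 region (chr2:105611180-105611987) lay 57.6 kb upstream of the gene, with an area of 520 and rank 673 of 727. It overlapped no ChIP peak, but a region of the CHD4-labelled list (7.11-fold), RBBP4 (7.59-fold) and MBD3 (3.26-fold) began 37 bp from it. The Emx1 region (chr6:85224368-85225055) lay 36.5 kb downstream of the start, within Sfxn5, with an area of 517 and rank 686. It overlapped RBBP7 at 7.70-fold and RBBP4 at 3.36-fold. The Slc17a6 region (chr7:51617283-51618303) lay 3.59 kb upstream of the start, with an area of 529 and rank 652, and its nearest ChIP peak, of RBBP4, was 3.22 kb away. The median area in the list was 704. The accessibility was measured a day earlier than the ChIP-seq, and the 2 kinds of data come from different embryos.

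In a window of 250 kb there were 7 KO-higher FTneg regions, near 5 of the 10 genes (11.6% of curated genes had one), and still no WT-higher one (0.649%). Those added included 2 near Eomes. One was 159 kb from the gene (chr9:118318713-118319568) with an area of 862, had Eomes as its nearest gene and overlapped peaks of all 6 lists. The other was 223 kb away (chr9:118255254-118256206) with an area of 1491, had Cmc1 as its nearest gene and overlapped all lists but the HDAC1-labelled one. The other two lay 237 kb from Neurod1 and 113 kb from Slc17a6, with areas of 571 and 502.

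Around the edge of the window, the outermost peaks just inside were an RBBP7 peak 98.2 kb from Emx1 (14.0-fold) and one 97.7 kb from Pax6 (5.26-fold). Those just outside were RBBP7 peaks 102 kb from Slc17a6 (9.33-fold) and 103 kb from Pax6 (5.10-fold).

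A wider list of 30 other genes of the cortical glutamatergic programme had a median of 3.91 merged regions per 100 kb, against 4.54 for the 10 genes, 5.54 for a list of 20 ventral GABAergic fate genes and 1.97 for all curated genes. Of the wider list, 4 genes had all 6 ChIP lists at a gene end. These were Cux1, a homeobox gene of upper layers, Insm1, a zinc finger gene of intermediate progenitors, Reln, which encodes reelin of Cajal-Retzius cells, and Unc5d, a netrin receptor gene. Mef2c, Neurod4 and Nhlh1 had no list at an end. Of the ventral list 0 of 20 had all 6 lists at an end. At promoter windows RBBP4 covered 10 of the 10 genes, 16 of 23 of the wider list (69.6%) and 15 of 16 ventral genes (93.8%). RBBP7 covered 7 of the 10 genes, 7 of the 23 genes of the wider list that have a promoter window (30.4%) and 3 of the 16 such ventral genes (18.8%). The CHD4-labelled list covered 4 of the 10, 13 of 23 of the wider list (56.5%) and 12 of 16 ventral genes (75%).

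KO-higher FTneg regions lay near 6 of the 30 genes of the wider list and WT-higher ones near 0 in both fractions. They were within Sox5 (area 792), Zbtb18 (1099) and Gli3 (2 regions, 710 and 580), and at 54.9 kb from Insm1 (1145), 59.5 kb from Id2 (948) and 89.0 kb from Pou3f2 (544). Of the ventral list, 10 of 20 genes had a KO-higher and 5 a WT-higher FTneg region, and 2 had a KO-higher and 5 a WT-higher FTpos region. The ventral genes with WT-higher regions were Dlx1, Dlx2, Dlx5, Dlx6 and Slc32a1. Dlx1 with Dlx2 and Dlx5 with Dlx6 are neighbouring pairs that share their regions, and Dlx1 and Dlx2 are the genes deleted in the KO. The other 15 ventral genes had no WT-higher region, as most curated genes had none.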

How the data were processed

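The submitters' processing notes name the build mm10 and the tools MACS2 2.2.7.1, Genrich, BWA, deepTools and SAMtools 1.10. Their settings, the read depth and the ATAC-seq protocol are not given in the sources used here. As to the ChIP libraries, per the labels' protocols, cells for ChIP were fixed with DSG and then PFA and libraries were size selected. The deposited ChIP lists give a fold enrichment, a ratio by the authors' caller, and −log10 p and −log10 q values for each peak called against input. The accessibility score is the area under the −log10 p curve, and the authors kept regions of at least 500, per the names of the deposited lists.

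Summits, computed as start plus summit offset, were assigned to the window of 100 kb around each of 20949 curated protein-coding genes (of 21627 on chromosomes 1 to 19 and X in the RefSeq table of GRCm38.p6). Overlapping ChIP peaks (at least 1 bp) were merged into regions. Body cover counts bases under peaks wherever the summit lies. Promoter windows came from a RefSeq table that holds 16782 of these genes. No genome or exon annotation was used. Window counts, merging and the nearest gene were checked on simulated peaks. Promoter overlap, gene end overlap and body cover were not checked in this way. The steps were run with Python 3.11.15, pandas 2.3.3 and numpy 2.4.6. Alternative windows, q thresholds, summit distances, gene ends and top peaks per list were computed.

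The genes and lists were chosen with earlier results of these data known. All 10 genes were to be named, with the merged region of most lists (then highest summed fold enrichment) for each and every accessibility region near one. Genes of the wider list were to be named where they held all 6 lists at an end, held none, or had an accessibility region. The 3 genes most like the gene with the most regions were taken by Euclidean distance of log2(1 + peaks) over the 6 lists. Other regions were chosen after their values were seen.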

Additional observations from a re-analysis of the deposited data

How the results depend on the processing

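Of 36 alternative values computed, 21 stayed close to those reported and 15 moved; the cause was not tested beyond the stricter rule itself. The 288 ChIP peaks near the genes became 162 in a window of 10 kb, 188 where the gene had to be the nearest, 121 with −log10 q limited to 10 or more and 87 with the top 5000 peaks per list. The median of 9.5 regions per gene became 5.5 at 10 kb and 6 at that q. The 2 genes with all 6 lists at an end became 1 when only start sites counted, 1 at that q and 1 with the top 5000 peaks. The 7 regions of all 6 lists became 4 with summits within 250 bp of each other, 2 at that q, 3 with the top 5000 peaks and 2 where the gene was the nearest. A narrower window or stricter cut can only lower the count of 288 peaks. The ChIP values over all genes and all regions were not recomputed under the alternatives. Whether the contrasts with them hold there was not tested. The 3 KO-higher FTneg regions became 0 at an area of at least 1000 and 7 in a window of 250 kb, and the other 3 accessibility lists stayed at 0 under each alternative run. Those values of 0 are counted among the 21. Only the window of 250 kb could have moved them, since a stricter rule cannot raise a count of 0.

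No paired analysis was possible because the embryos are combined in the deposited accessibility lists and each ChIP target has 1 list. For the same reason leaving out a replicate was not possible. Unknown depth limits what an absent peak means, since a peak under the caller's threshold is not listed. Windows of 100 kb include other genes, and a summit near a gene does not tie the peak to it.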
